A study of Caenorhabditis elegans with 12 samples.

Results

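The fbxa genes are the F-box A genes of Caenorhabditis elegans, and they were taken as every row of the deposited expression table whose name is fbxa followed by a number. There were 196 such genes among the 19568 genes of the table, of which 153 were annotated as protein-coding and 43 as pseudogenes. They were measured by RNA sequencing of whole worms at the L4 stage, the last larval stage, grown on HT115 E. coli. The 12 libraries were 3 biological replicates each of wildtype, of mrps-38(P210L), of lonp-1(cmh24) and of the double mutant, which has the 2 alleles together. LONP-1 is a protease that degrades proteins in the mitochondrial matrix, and MRPS-38 belongs to the small subunit of the ribosome inside mitochondria. The strains with 1 mutation are called the mrps-38 mutant and the lonp-1 mutant below. The series title speaks of dysregulated mitochondrial protein synthesis in LONP-1 deficiency that mitoribosomal mutations restore, so the comparison of the double mutant with lonp-1(cmh24) is the one closest to that question.

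F-box proteins are the exchangeable substrate receptors of SCF ubiquitin ligases. The F-box binds a Skp1-related adaptor (skr genes in C. elegans), the adaptor binds a cullin with its RING subunit, and the rest of the F-box protein holds the substrate that is to be ubiquitinated. C. elegans carries several expanded families of such receptors (fbxa, fbxb and fbxc), together with many MATH and BTB domain adaptors that serve another cullin. Most fbxa genes have no assigned substrate. Exceptions with a known setting are fbxa-75 and fbxa-158, which belong to the intracellular pathogen response, a program induced by microsporidia and virus in the intestine, and whose proteins act with the cullin CUL-6.

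Each library held 22614493 to 22890539 reads in genes. The lonp-1 transcript was present in all genotypes, at a mean normalized count of 1688 in wildtype and 1340 in the lonp-1 mutant. Its log2 fold change of -0.33 ± 0.05 (SE; limma, adjusted p = 3.4e-05) became -0.10 (adjusted p = 0.113) on the FPKM table. mrps-38 itself was not analysed here. Muscle, pharynx, intestine, neuron, epidermis and germline markers, each only 1 or 2 genes, had reads in all groups, but not at equal levels. The epidermis markers dpy-7 and rol-6 took 0.0964% of reads in wildtype, 0.113% in the mrps-38 mutant, 0.0563% in the lonp-1 mutant and 0.0108% in the double mutant. The germline markers glp-1 and pgl-1 took 0.0214%, 0.00895%, 0.0258% and 0.0304% in that order. Of these 2, 1 was called higher and 1 lower in the lonp-1 mutant against wildtype (limma, adjusted p under 0.05). The pharynx marker myo-2 took 0.0528%, 0.0608%, 0.0233% and 0.0389%. Shares of so few genes do not measure the amount of a tissue. Markers of sexual maturation differed most in range. Yolk protein genes took 0.00171% of reads in the mrps-38 mutant, 0.104% in wildtype, 0.949% in the lonp-1 mutant and 2.45% in the double mutant. Sperm genes took 0.00721%, 0.117%, 0.161% and 0.744%, and oocyte genes 0.00713%, 0.031%, 0.282% and 0.377%, in the order of the yolk values. Of 31 tested sperm genes, 0 were called higher and 1 lower in the lonp-1 mutant against wildtype (limma, adjusted p under 0.05). Within the mrps-38 mutant, sperm genes ranged from 0.00242% to 0.0167% of reads, and replicate 3 was the highest. In RNA of whole worms, fewer cells of a type and less RNA per cell cannot be told apart, and the part of these differences in tissue and maturation markers in the results on fbxa genes was not tested.

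The fbxa genes were weakly expressed. The median member had a mean of 1.46 FPKM (fragments per kilobase of gene, scaled to the reads of the library) over the 12 libraries, against 5.83 for all genes of the table. The members ranged from 0.0178 to 32.2 FPKM, and 6 of them reached 10 FPKM. The test was run on the 151 members whose normalized counts averaged 10 or more over the 12 libraries. The lowest tested member had a mean of 10.3 and the highest untested one a mean of 9.69. Because the members are related in sequence and many lie side by side, reads may be split between near-identical copies in a way the counting does not show. The assignment to a single member is therefore uncertain. In the Ensembl annotation, 31 members overlap another gene, 15 of them on the same strand and 21 on the other strand. Of the 52 members chosen for closer description, fbxa-59, fbxa-67, fbxa-39 and fbxa-94 do so.

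As a whole the family was most abundant in the lonp-1 mutant and least abundant in the mrps-38 mutant. The members together took 0.0886 ± 0.00042% of all reads (SD, n = 3) in the lonp-1 mutant, 0.0723 ± 0.00087% in the double mutant, 0.0502 ± 0.0015% in wildtype and 0.0314 ± 0.00098% in the mrps-38 mutant. The summed FPKM was 408 to 434 in the wildtype libraries, 253 to 267 in the mrps-38 mutant, 720 to 723 in the lonp-1 mutant and 579 to 593 in the double mutant. No range of one genotype overlapped that of another. In normalized counts the gap between the lonp-1 mutant and the double mutant was smaller, with sums of 16780 ± 259 and 15890 ± 108, and the median member stood at 45.6 ± 2.27 and 45.2 ± 1.07, against 24.4 ± 0.56 for wildtype and 17.1 ± 1.11 for the mrps-38 mutant. The order of the FPKM sums was the same without the strongest genes. Without fbxa-72 and fbxa-215, the strongest gene of one or other genotype, the sums were 358 FPKM in wildtype, 222 in the mrps-38 mutant, 644 in the lonp-1 mutant and 532 in the double mutant. The number of members with at least 1 read was 174 to 181 per wildtype library, 180 to 182 in the mrps-38 mutant, 195 to 196 in the lonp-1 mutant and 188 to 193 in the double mutant. Each gene of the deposited table has at least 10 reads over the 12 libraries, so a rare member is listed only where some genotype held its reads. The numbers of members with reads are given as a description and support no difference between the genotypes.

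**Figure D1:**
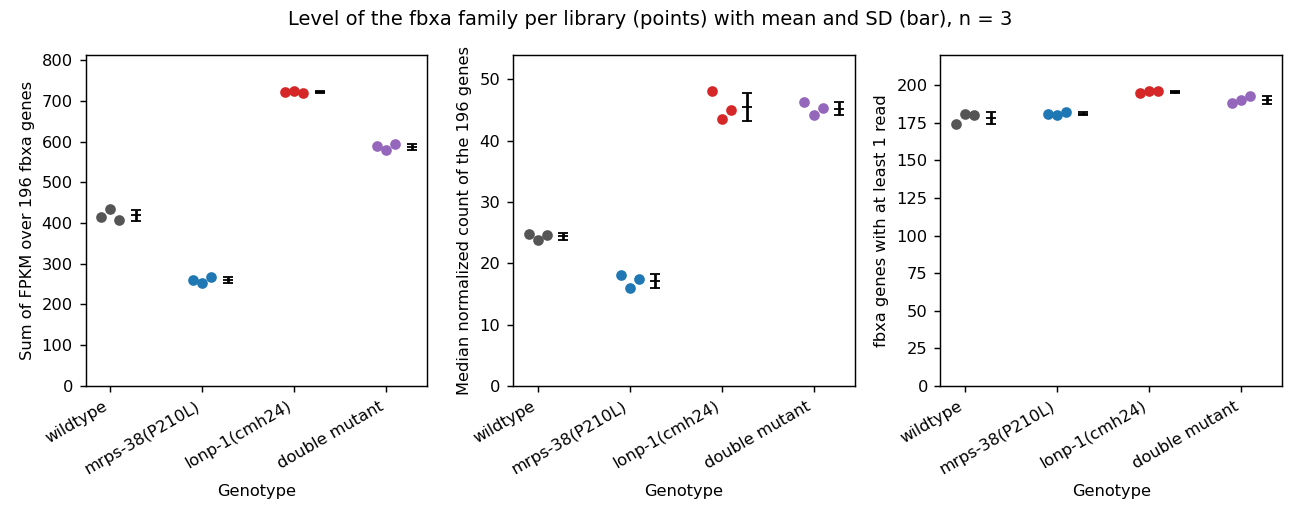
Summed FPKM, median normalized count and number of members with at least 1 read (y axes, each from 0) for the 196 fbxa genes in each library (points), by genotype, with mean and SD. The 3 lonp-1 mutant libraries, at 720 to 723 FPKM, lie above all others, and the 3 mrps-38 mutant libraries, at 253 to 267 FPKM, lie below.

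The 45 untested members showed the same order between wildtype and the lonp-1 mutant in their sums. Their normalized counts summed to 130 in wildtype, 150 in the mrps-38 mutant, 349 in the lonp-1 mutant and 229 in the double mutant. These sums carry the same limit, since a member without reads in wildtype is listed only through the genotypes where it is higher. Of the 45, 7 had no read in any wildtype library and 6 none in any mrps-38 mutant library.

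Across the 151 tested members, the mean was highest in the lonp-1 mutant for 71 (47.0%, against 17.3% of all tested genes) and in the double mutant for 52 (34.4%, against 33.3%). It was lowest in the mrps-38 mutant for 83 members (55.0%, against 36.7%) and in wildtype for 43 (28.5%, against 17.1%).

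Against wildtype, fbxa genes were mostly higher in the lonp-1 mutant. Here and below, a gene is said to rise or fall where limma, fitted to log2 of the normalized count + 1 of all 15717 tested genes, gave a Benjamini-Hochberg adjusted p under 0.05. Of the 151 tested members, 77 (51.0%) rose, where 30.6% of all genes did, and 13 (8.61%) fell, where 32.1% of all genes did. The median log2 fold change was 0.51 for the members and -0.06 for all genes. The excess of rises was present at each level of expression. Among members with a mean count of 10 to 30, 62.8% rose against 29.4% of genes at that level. With 30 to 100, 38.5% rose against 24.1%, and with a mean of 100 or more, 58.1% rose against 32.3%. These means are taken over all 12 libraries. A weak member can therefore reach a level, or the test itself, through the genotype where it is high. The shares at the lowest level are a description only.

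**Figure D2:**
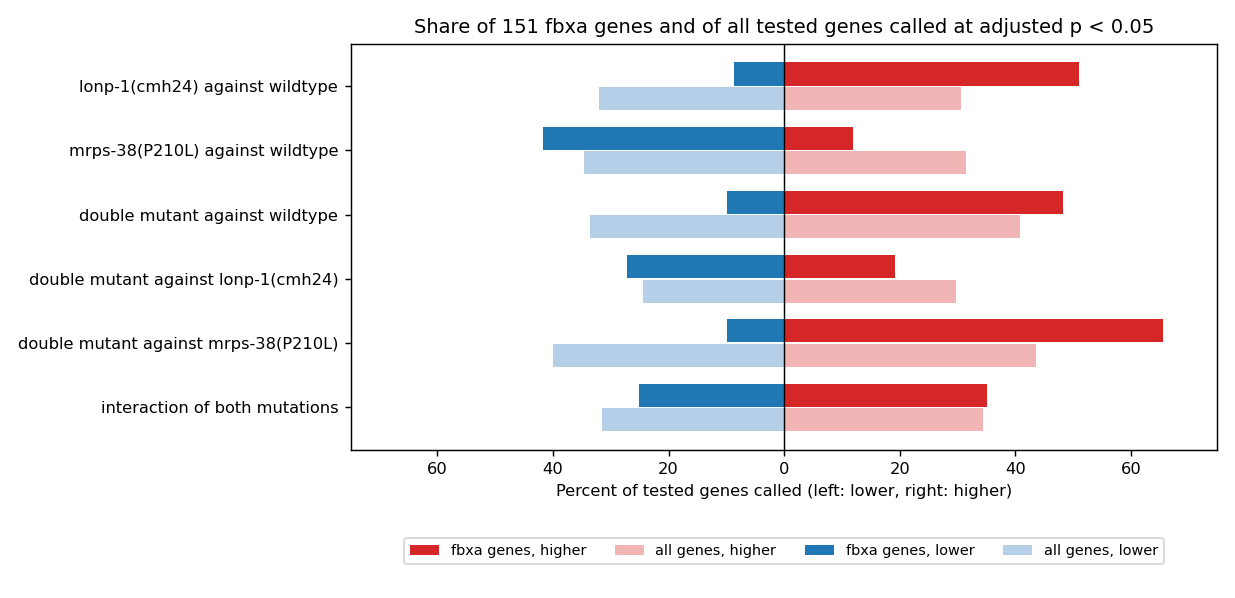
Percent of tested genes called higher (right) or lower (left) in each comparison, for the 151 tested fbxa genes (dark bars) and all 15717 tested genes (pale bars). In the lonp-1 mutant against wildtype 51.0% of the fbxa genes were higher against 30.6% of all genes, and in the mrps-38 mutant against wildtype 11.9% against 31.5%.

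The strongest rises were in genes nearly silent in wildtype. fbxa-158 (WBGene00015602, WBcel235, chromosome II, 1619814 to 1621280) belongs to the intracellular pathogen response. Its normalized counts were 0, 7.601 and 9.855 in wildtype, 18.7, 21.2 and 20.9 in the mrps-38 mutant, 258, 197 and 204 in the lonp-1 mutant, and 83.0, 80.5 and 86.7 in the double mutant. No groups overlapped, and from low to high they were wildtype, the mrps-38 mutant, the double mutant and the lonp-1 mutant. Its log2 fold change in the lonp-1 mutant was 5.59 ± 0.71 (SE, adjusted p = 6.1e-05). Replicate 1 of wildtype had no read, and without that library the value was 4.50 ± 0.18 (adjusted p = 2.9e-09).

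fbxa-75 (WBGene00022476, chromosome III, 1303714 to 1305461), the other member of that response, was too rare to be tested. It had no read in any wildtype or mrps-38 mutant library, 23 reads over the 3 lonp-1 mutant libraries and 1 read over the 3 double mutant libraries. Against a floor of 3 reads over the wildtype group, the ratio of normalized levels in the lonp-1 mutant was 6.53. This ratio includes no counting error of the 23 reads. A gene this rare is listed only through the genotype that held its reads, here the lonp-1 mutant. Its ratios between genotypes are therefore a description only. The ratio of the double mutant to the lonp-1 mutant was 0.0504 (exact 95% interval 0.00122 to 0.310, for counting error only). By normalized count the lonp-1 mutant libraries held 11.8, 3.29 and 4.13, so replicate 1 was the highest. That library was also the highest of its group for 17 of 20 tested pals genes, which are induced in the same response. Over the 77 members that rose it was the highest for 32, replicate 2 for 22 and replicate 3 for 23.

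fbxa-166 (chromosome II, 1616829 to 1619048), a close neighbour of fbxa-158, had 18.8, 10.45 and 18.7 counts in wildtype, 39.7, 34.2 and 52.2 in the mrps-38 mutant, 341, 278 and 273 in the lonp-1 mutant, and 147, 148 and 125 in the double mutant. All groups were separate, in the order seen for fbxa-158. The log2 fold change in the lonp-1 mutant was 4.17 ± 0.22 (adjusted p = 4.8e-09). fbxa-163 (chromosome II, 1609252 to 1610730) had 2 reads in wildtype and 210 in the lonp-1 mutant, a ratio of normalized levels of 89.4 (exact 95% interval 24.4 to 743). It held 61.5, 60.9 and 52.0 counts in the lonp-1 mutant and 20.03, 26.2 and 19.3 in the double mutant.

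Other genes rose in the lonp-1 mutant without a fall in the double mutant that passed the test. fbxa-182 (chromosome II, 2409633 to 2412749) had 28.8, 20.9 and 21.7 counts in wildtype, 73.5, 69.6 and 76.6 in the mrps-38 mutant, 597, 334 and 428 in the lonp-1 mutant, and 433, 452 and 484 in the double mutant. The lonp-1 mutant and double mutant ranges overlapped, and both lay above the other groups. Its log2 fold change in the lonp-1 mutant was 4.17 ± 0.18 (adjusted p = 9.5e-10), and between the double mutant and the lonp-1 mutant it was 0.05 ± 0.18 (adjusted p = 0.83). The pseudogene fbxa-200 (chromosome II, 904425 to 906039) had 2 reads in wildtype, 1 in the mrps-38 mutant, 136 in the lonp-1 mutant and 160 in the double mutant. The ratio of the lonp-1 mutant to wildtype was 57.9 (exact 95% interval 15.7 to 483). fbxa-184 (chromosome II, 1710259 to 1711417) likewise had 2 wildtype reads and a ratio of 65.6 (interval 17.8 to 546).

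Away from chromosome II, fbxa-170 (chromosome X, 1676205 to 1678121) had counts of 1.98, 0.9502 and 0.9855 in wildtype, 2.33, 2.36 and 5.80 in the mrps-38 mutant, 76.7, 86.4 and 85.9 in the lonp-1 mutant, and 52.5, 43.6 and 46.2 in the double mutant. The 3 lonp-1 mutant libraries were the highest and all wildtype libraries the lowest, with a log2 fold change of 5.21 ± 0.31 between these groups (adjusted p = 1.2e-08). fbxa-153 (chromosome V, 15605673 to 15610384) rose from 10.9, 11.4 and 8.87 in wildtype to 135, 169 and 176 in the lonp-1 mutant, by 3.82 ± 0.20 on the log2 scale (adjusted p = 3.8e-09). It stood at 129, 126 and 99.2 in the double mutant. Of the 10 members with the highest mean FPKM, fbxa-215 rose most. It lies on chromosome IV (WBGene00012879, 13665364 to 13666909), and its counts were 212 to 231 in wildtype, 88.5 to 102 in the mrps-38 mutant, 1032 to 1469 in the lonp-1 mutant and 1190 to 1272 in the double mutant. The 2 genotypes with the lonp-1 mutation lay well above the others, and the log2 fold change in the lonp-1 mutant against wildtype was 2.51 ± 0.11 (adjusted p = 1.3e-09).

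**Figure D3:**
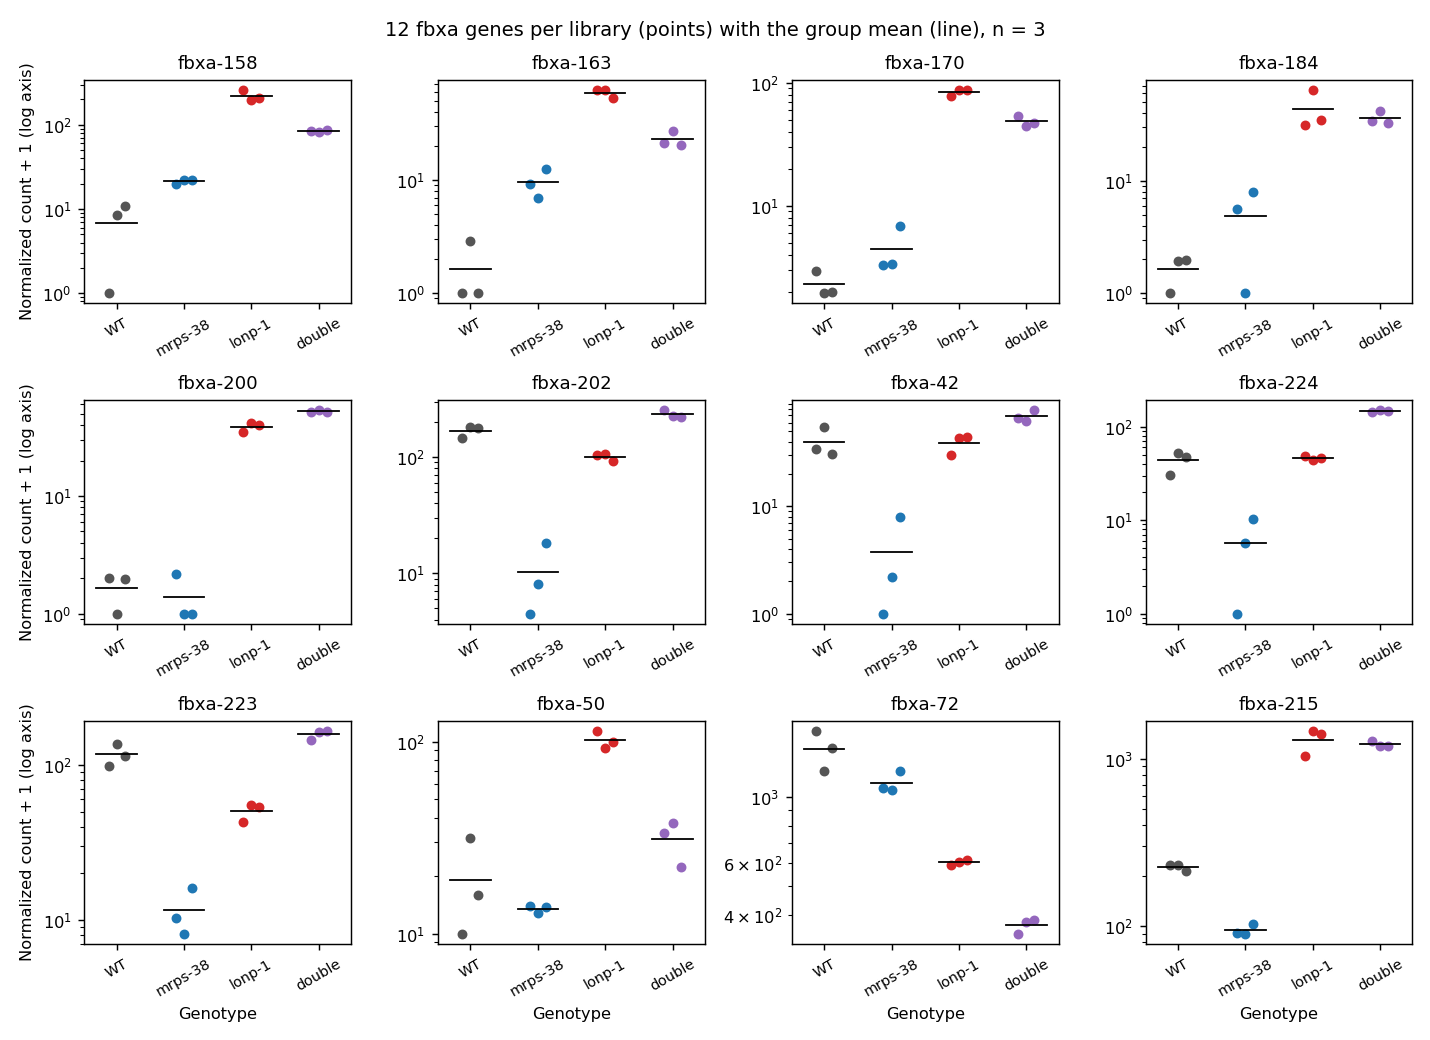
Normalized count + 1 (y axis, log scale) of 12 named fbxa genes in each library (points) by genotype, with the group mean as a line. fbxa-158, fbxa-163 and fbxa-170 were lowest in wildtype and highest in the lonp-1 mutant, fbxa-202, fbxa-42, fbxa-224 and fbxa-223 were lowest in the mrps-38 mutant and highest in the double mutant, and fbxa-72 was highest in wildtype and lowest in the double mutant.

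The 13 members that fell in the lonp-1 mutant did so by less. The largest fall was that of fbxa-72 (WBGene00017962, chromosome V, 674886 to 676753), the most abundant member in wildtype, where it held 12.8% of the summed FPKM of the family. Its counts were 1215 to 1662 in wildtype, 1053 to 1218 in the mrps-38 mutant, 590, 605 and 614 in the lonp-1 mutant, and 345, 379 and 384 in the double mutant. The wildtype and mrps-38 mutant ranges overlapped, and the groups with the lonp-1 mutation lay below both. The log2 fold change in the lonp-1 mutant was -1.25 ± 0.10 (adjusted p = 1.6e-07), and in the double mutant against wildtype it was -1.95 ± 0.10 (adjusted p = 1.4e-09). fbxa-183, fbxa-223, fbxa-121 and fbxa-84 fell by 1.22, 1.20, 1.10 and 1.01 on the log2 scale.

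In the mrps-38 mutant against wildtype, 63 members (41.7%) fell and 18 (11.9%) rose, where 34.7% of all genes fell and 31.5% rose. The median log2 fold change was -0.31 for the members and -0.01 for all genes. The excess of falls was not present at each level of expression. Among members with a mean count of 10 to 30, 9.3% fell against 24.4% of genes at that level and 16.3% rose against 21.3%, with a median of 0.11. With 30 to 100, 56.9% fell against 36.9%, and with 100 or more, 51.2% against 35.8%. On the FPKM table, where 143 members were tested, 80 fell and 11 rose. Rises then made up 12.1% of the members called in place of 22.2%. All genes moved too, from 47.6% of calls to 25.4%.

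Among the named genes, those with the largest falls were moderately expressed in wildtype and almost absent from the mrps-38 mutant. fbxa-202 (chromosome V, 6327280 to 6328865) had 145, 182 and 176 counts in wildtype, 3.502, 7.08 and 17.4 in the mrps-38 mutant, 103, 104 and 90.8 in the lonp-1 mutant, and 252, 224 and 221 in the double mutant. No groups overlapped, and replicate 3 was the highest mrps-38 mutant library. The log2 fold change in the mrps-38 mutant was -4.26 ± 0.38 (adjusted p = 2.2e-06).

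fbxa-42 (chromosome III, 2259906 to 2261453) had 32.7, 54.2 and 29.6 counts in wildtype, 0, 1.18 and 6.96 in the mrps-38 mutant, 28.7, 41.97 and 42.9 in the lonp-1 mutant, and 65.8, 61.1 and 77.1 in the double mutant. Wildtype and the lonp-1 mutant overlapped, the mrps-38 mutant lay below them and the double mutant above. fbxa-196 (chromosome V, 6448656 to 6450217) had 65.5, 98.8 and 84.7 counts in wildtype, 8.17, 7.08 and 12.8 in the mrps-38 mutant, 55.6, 74.1 and 61.9 in the lonp-1 mutant, and 216, 212 and 207 in the double mutant. Again only wildtype and the lonp-1 mutant overlapped. The log2 fold changes in the mrps-38 mutant were -3.89 ± 0.58 for fbxa-42 (adjusted p = 0.00011) and -3.04 ± 0.21 for fbxa-196 (adjusted p = 9.5e-08).

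fbxa-223, fbxa-224, fbxa-201, fbxa-178 and fbxa-125 fell by 3.40, 3.45, 3.29, 3.29 and 3.00 on the log2 scale. fbxa-223 and fbxa-178 are annotated as pseudogenes. In each of these 8 genes replicate 3 was the highest library of the mrps-38 mutant, as it was for the sperm genes, whose 31 tested members all fell in this comparison. Without replicate 3 the falls grew to -4.80 for fbxa-202, -4.70 for fbxa-42, -4.15 for fbxa-224 and -3.92 for fbxa-178. The counts of members over the family were then 61 lower and 16 higher, against 5344 and 4703 of all 15717 genes. The part of the sperm content of these worms in the fall was not tested.

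Rises in the mrps-38 mutant were fewer and smaller. Among the named genes the largest belonged to genes that also stood high in the lonp-1 mutant. fbxa-163 went from 2 reads in wildtype to 22, a ratio of 13.2 (exact 95% interval 3.24 to 116). fbxa-182 rose by 1.60 ± 0.18 (adjusted p = 5.6e-06), fbxa-166 by 1.36 ± 0.22 (adjusted p = 0.00011) and fbxa-158 by 2.23 ± 0.71 (adjusted p = 0.019), the last of these again with 1 wildtype library at 0. Without that library the rise of fbxa-158 was 1.14 ± 0.18 (adjusted p = 0.00018). It did not pass in the fit of only these 2 genotypes (adjusted p = 0.062) or without replicate 2 of the mrps-38 mutant (adjusted p = 0.051), and it passed under 20 of 22 alternatives. fbxa-24 (chromosome II, 3816526 to 3818238), with 37.4 to 61.5 counts in wildtype and 96.3 to 116 in the mrps-38 mutant, rose by 1.10 ± 0.16 (adjusted p = 4.4e-05). The mrps-38 mutant and the lonp-1 mutant share the wildtype libraries as their control.

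In the double mutant against the lonp-1 mutant, 41 members (27.2%) fell and 29 (19.2%) rose, where 24.5% of all genes fell and 29.8% rose. The median was -0.09 for the members and 0.03 for all genes. The balance depended on the scaling of the libraries. Rises made up 41.4% of the members called with the authors' size factors, 25.4% with TMM factors (18 rose, 53 fell) 26.4% with edgeR (23 rose, 64 fell) and 21.1% on the FPKM table (15 rose, 56 fell). Over all genes the share of rises moved the same way, from 54.9% to 38.4% with TMM factors, 37.1% with edgeR and 31.2% on the FPKM table. Among the 84 members with a mean of at least 50, 21 rose and 21 fell, where 4172 and 3222 of 12921 genes did. Without replicate 3 of the lonp-1 mutant 16 members and 4059 of all 15717 genes rose. Without replicate 1 of the double mutant 18 members and 3999 of all genes did. The share of falls is close to that of all genes. Of the 77 members that were higher in the lonp-1 mutant than in wildtype, the mean of the double mutant lay between both for 54, above the lonp-1 mutant for 19 and at or below wildtype for 4. These counts describe the means and carry no test, since the same lonp-1 mutant libraries chose the genes.

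Among the named genes, the falls of the double mutant were led by those that were high in the lonp-1 mutant. This follows in part from the choice of genes, since the same lonp-1 mutant libraries enter both, and it carries no test. fbxa-50 (chromosome III, 1287299 to 1288523) had 113, 91.3 and 99.1 counts in the lonp-1 mutant and 32.4, 36.9 and 21.2 in the double mutant, and 8.93 to 30.4 in wildtype. It fell by 1.74 ± 0.34 on the log2 scale (adjusted p = 0.00089). Its neighbours fbxa-33 and fbxa-34, both annotated as pseudogenes, fell by 1.45 and 1.35. fbxa-33 had 97.1 to 122 counts in the lonp-1 mutant, 33.9 to 43.35 in the double mutant and 52.3 to 56.5 in wildtype. fbxa-66 (chromosome III, 2309792 to 2314035) fell from 81.8, 37.9 and 55.3 to 21.9, 17.5 and 18.3, by 1.49 ± 0.36 (adjusted p = 0.0035). fbxa-24 fell from 179 to 196 counts in the lonp-1 mutant to 70.8 to 75.3 in the double mutant, by 1.34 ± 0.16 (adjusted p = 1.6e-05), and fbxa-166 by 1.08 ± 0.22 (adjusted p = 0.0012). For fbxa-158 the values of both groups did not overlap. Its log2 fold change of -1.38 ± 0.71 did not pass in the fit of all libraries (adjusted p = 0.13), and it passed without the wildtype library at 0 (-1.38 ± 0.16, adjusted p = 2.5e-05). It passed under 6 of 22 alternatives, and its adjusted p over these 22 ran from 9.9e-13 to 0.247.

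The rises of the double mutant over the lonp-1 mutant were led by genes with their lowest level in the mrps-38 mutant. fbxa-196 rose by 1.72 ± 0.21 (adjusted p = 2.1e-05). fbxa-223 went from 42.1, 54.3 and 52.8 to 145, 162 and 166, by 1.65 ± 0.23 (adjusted p = 5.6e-05). fbxa-218 (chromosome III, 12436515 to 12441058) went from 59.0, 72.4 and 70.2 to 209, 197 and 198, by 1.57 ± 0.20 (adjusted p = 3.1e-05). In none of these did the groups overlap. All 31 tested sperm genes also rose in this comparison, with a median log2 fold change of 2.39, and their part was not tested.

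**Figure D4:**
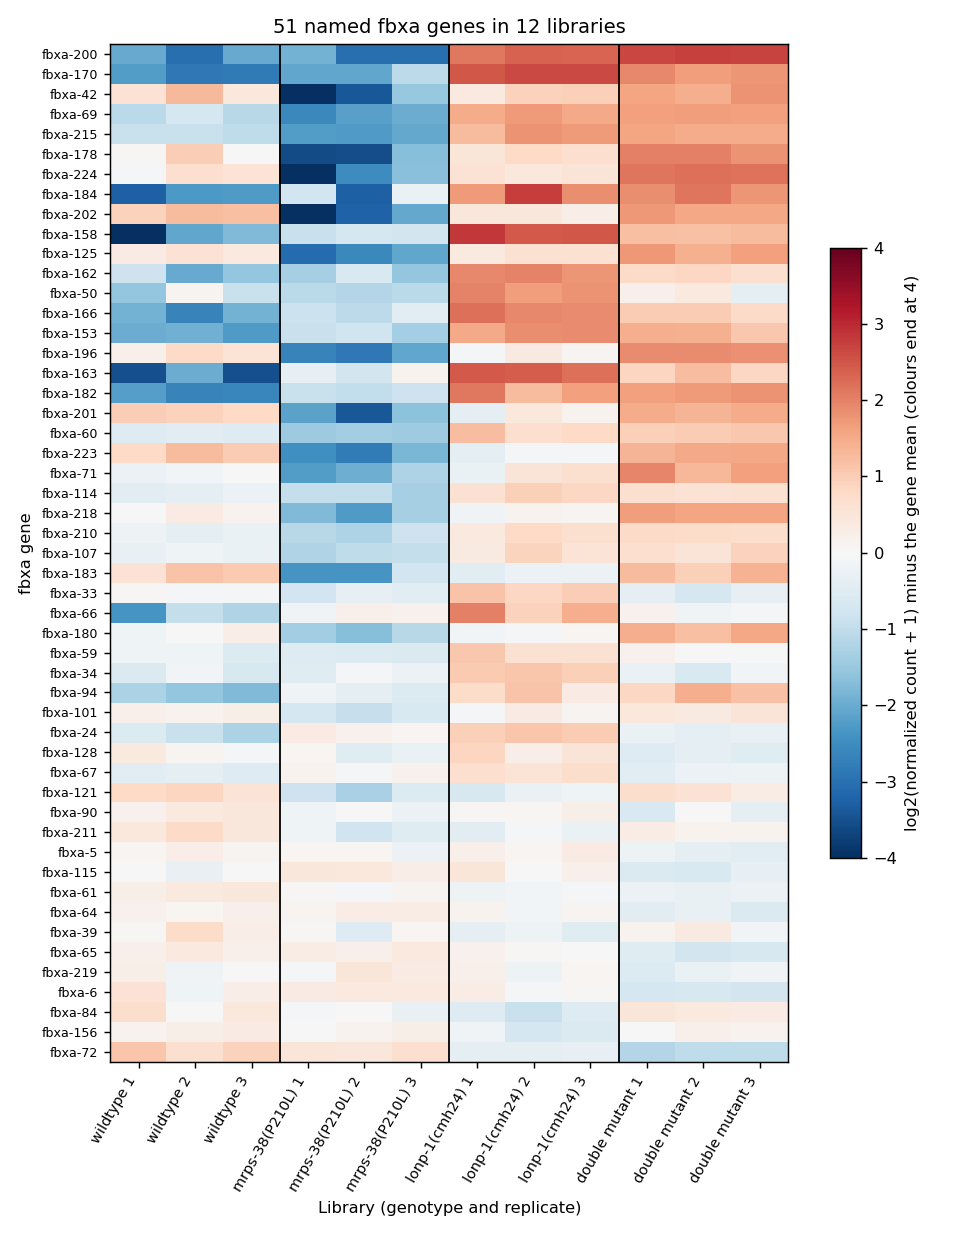
log2(normalized count + 1) minus the gene's mean (colour) for the 51 tested named fbxa genes (rows) in the 12 libraries (columns). A block of genes is low in all mrps-38 mutant libraries, with replicate 3 the least low for fbxa-42, fbxa-202 and fbxa-178, another is high in the lonp-1 mutant and lower in the double mutant, and fbxa-72 is lowest in the double mutant.

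Compared with wildtype, 73 members (48.3%) were higher and 15 (9.93%) lower in the double mutant, where 40.9% of all genes were higher and 33.6% lower. The median was 0.46 for the members and 0.09 for all genes. Leading rises were in the genes already described for the lonp-1 mutant. fbxa-200 was 78.9-fold (exact 95% interval 21.5 to 657) above wildtype, fbxa-184 54.3-fold (interval 14.7 to 454), and fbxa-182 rose by 4.22 ± 0.18 on the log2 scale (adjusted p = 3.0e-10). Besides fbxa-72, the named genes fbxa-6, fbxa-65, fbxa-64 and fbxa-61 fell by 0.92, 0.88, 0.58 and 0.61. fbxa-64 and fbxa-65 are among the 10 strongest members, and they fell in the double mutant with adjusted p of 0.00021 and 3.2e-06. In the lonp-1 mutant their log2 fold changes were -0.10 ± 0.10 and -0.20 ± 0.10 and did not pass (adjusted p = 0.44 and 0.096).

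Compared with the mrps-38 mutant, 99 members (65.6%) were higher and 15 (9.93%) lower in the double mutant, where 43.6% of all genes were higher and 40.0% lower. The median was 0.91 for the members and 0.05 for all genes, the widest gap among the comparisons. fbxa-202, fbxa-42 and fbxa-196 rose by 4.73 ± 0.38, 4.73 ± 0.58 and 4.40 ± 0.21. fbxa-69 (chromosome V, 15814232 to 15815971) went from 10.51, 14.2 and 16.2 in the mrps-38 mutant to 212, 218 and 215 in the double mutant, by 3.90 ± 0.17 (adjusted p = 1.7e-10). It also stood at 190, 223 and 196 in the lonp-1 mutant. Among the strong genes, fbxa-60 (chromosome III, 944733 to 946300) rose by 2.43 ± 0.12 (adjusted p = 3.9e-10), from 113 to 117 counts in the mrps-38 mutant to 600 to 650 in the double mutant.

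The effect of mrps-38(P210L) in the presence of the lonp-1 mutation, minus its effect without it, was higher than 0 for 53 members (35.1%, against 34.4% of all genes) and lower for 38 (25.2%, against 31.6%). These shares are near those of all genes. An interaction of at least 4-fold above 0 was called for 18 members (11.9%, against 12.8% of all genes). All of these had their lowest mean in the mrps-38 mutant, 16 had their highest in the double mutant, and in 16 the highest mrps-38 mutant library was replicate 3. An interaction of at least 4-fold below 0 was called for 9 members (6.0%, against 4.10%), and 7 of these had their highest mean in the lonp-1 mutant. The interaction is computed from the means of the same libraries. Which genotype is highest or lowest in these sets therefore follows in part from the selection and carries no test. How often replicate 3 is the highest mrps-38 mutant library over all genes was not counted, so that count is a description only. The first set was led by fbxa-202 (5.48 ± 0.53), fbxa-224 (5.11 ± 0.94) and fbxa-223 (5.04 ± 0.32). The second was led by fbxa-163 (-4.08 ± 0.56, with 2 wildtype reads and a range of -5.15 to -2.50 over the alternatives), fbxa-158 (-3.60 ± 1.01) and fbxa-66 (-3.07 ± 0.51).

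The fbxa genes are clustered in the genome. Of the 196, 86 lie on chromosome V, 63 on III, 19 on II, 12 each on I and X, and 4 on IV. Taking members within 20 kb of the next fbxa gene as neighbours, 14 runs of at least 4 hold 109 members, and 53 members have no such neighbour. The run from fbxa-161 to fbxa-159 (chromosome II, 1606595 to 1622847) holds 8 members including fbxa-158, fbxa-163 and fbxa-166. Its summed level was 1.17 ± 0.22 FPKM in wildtype, 2.502 ± 0.30 in the mrps-38 mutant, 30.7 ± 3.66 in the lonp-1 mutant and 11.7 ± 0.71 in the double mutant (SD, n = 3). Of its 8 members, 4 were tested, and all 4 rose in the lonp-1 mutant, with a median of 4.77. Weak members such as fbxa-163 reach the test through the genotypes where they are high, so this count is a description only. In the run from fbxa-55 to fbxa-51 (chromosome III, 933422 to 963833) all 9 members were tested and all 9 rose, by 0.64 to 3.29, from a sum of 32.2 ± 2.55 FPKM in wildtype to 82.1 ± 10.7. It held 60.4 ± 1.75 FPKM in the double mutant. The longest run, 29 members from fbxa-21 to fbxa-25 (chromosome III, 1236015 to 1349450), was mixed. Of its 22 tested members 13 rose and 1 fell in the lonp-1 mutant, and 9 fell in the double mutant against the lonp-1 mutant. Over all genes 30.6% rose and 32.1% fell in the first comparison, and 24.5% fell in the second.

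**Figure D5:**
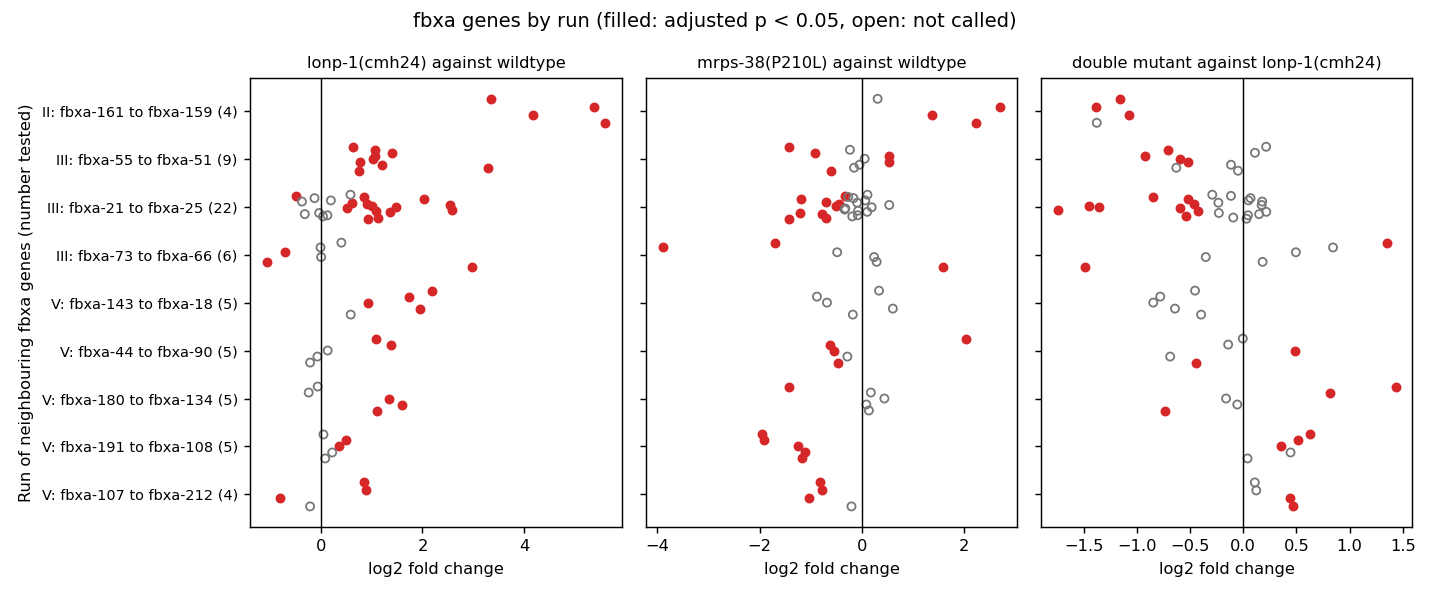
log2 fold change (x axes) of the tested members of each run of neighbouring fbxa genes with at least 4 tested members (rows, number tested in brackets), in 3 comparisons. Filled points passed an adjusted p of 0.05. The run from fbxa-55 to fbxa-51 is to the right of 0 for all 9 members in the lonp-1 mutant against wildtype, and the run from fbxa-161 to fbxa-159 reaches furthest right.

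By chromosome, 11 of the 15 tested members on II rose in the lonp-1 mutant and none fell, with a median log2 fold change of 1.93. Over all genes 30.6% rose and 32.1% fell in this comparison. The members on II include fbxa-163, fbxa-184 and fbxa-200, with 2 reads each in wildtype. Such genes reach the test through the genotypes where they are high. On I, only 1 of 12 rose and 1 fell, while 10 of 12 fell in the mrps-38 mutant with a median of -0.80, where 34.7% of all genes fell. An example on I is fbxa-101 (12958640 to 12959932), one of the strong members, with 327, 314 and 334 counts in wildtype, 174, 150 and 187 in the mrps-38 mutant, 271, 360 and 309 in the lonp-1 mutant, and 385, 364 and 405 in the double mutant. Wildtype and the lonp-1 mutant overlapped, with the mrps-38 mutant below them and the double mutant above. The log2 fold change in the mrps-38 mutant against wildtype was -0.94 ± 0.11 (adjusted p = 7.0e-06). Whether chromosomes differ in their effect was not tested. The annotated pseudogenes also changed. Of 35 tested, 14 rose and 4 fell in the lonp-1 mutant, against 63 and 9 of 116 protein-coding members. The shares of all genes there were 30.6% and 32.1%. In the mrps-38 mutant 19 pseudogenes fell and 2 rose, against 34.7% and 31.5% of all genes. Reads counted in a pseudogene may come from a related gene.

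The partners of F-box proteins changed unevenly. Of the 4 core SCF subunits listed, none rose and 1 fell in the lonp-1 mutant, with a median of -0.10. The fall was that of skr-1, the main Skp1 adaptor, by 0.34 ± 0.04 (adjusted p = 1.6e-05). As a share of reads, another scaling, the 4 together took 0.0417 ± 0.00092% in wildtype and 0.0434 ± 0.0023% in the lonp-1 mutant (SD, n = 3). The fall of skr-1 is given on normalized counts only. Of 14 other tested skr genes, 9 rose and 1 fell, where 30.6% of all genes rose and 32.1% fell. skr-7 and skr-14 had no read in any wildtype library, and stood at 198 ± 25.01 and 91.7 ± 6.55 counts in the lonp-1 mutant and at 50.7 ± 3.76 and 23.1 ± 0.19 in the double mutant. These genes, and skr-15, also without wildtype reads, pass the filter only through the genotypes with the lonp-1 mutation. Their rises, counted above, are therefore a description only. skr-5, an adaptor of the pathogen response ligase, rose from 28.7 ± 7.82 to 275 ± 99.7, by 3.19 ± 0.24 (adjusted p = 1.2e-07), and its cullin cul-6 rose by 0.66 ± 0.12 (adjusted p = 0.00028). skr-3 of the same ligase rose by 0.27 ± 0.08 (adjusted p = 0.0075). The values of skr-4 and of the RING subunit gene rcs-1, 0.30 ± 0.16 and 0.06 ± 0.15, did not pass (adjusted p = 0.12 and 0.76). Of 20 tested pals genes 16 rose and none fell in the lonp-1 mutant, and 8 fell and none rose in the double mutant against the lonp-1 mutant. Over all genes 24.5% fell and 29.8% rose in the latter comparison.

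Other receptor families moved in the same direction as the fbxa genes in the lonp-1 mutant. Of 23 tested fbxc genes 15 rose and 1 fell, with a median of 1.40, and of 79 tested MATH and BTB adaptors 51 rose and 2 fell, with a median of 0.72. Of the 59 fbxb genes only 5 were abundant enough to be tested, and 3 of them rose. The share over all genes was 30.6% higher and 32.1% lower. All lists pass the same filter over the 12 libraries, so a weak gene can enter through the genotype where it is high. In the mrps-38 mutant 40 MATH and BTB adaptors fell and 12 rose, where 34.7% of all genes fell and 31.5% rose. The 9 falls and 7 rises of the 23 fbxc genes there are near the shares of all genes. F-box genes known by function were also mostly higher, 7 of 9, with 1 lower. fog-2, which acts in the choice of sperm or oocyte fate in the hermaphrodite germline, rose by 1.30 ± 0.10 (adjusted p = 1.8e-07), and fsn-1, a receptor at synapses, by 1.07 ± 0.07 (adjusted p = 5.0e-08). dre-1, which acts in larval developmental timing, fell by 0.66 ± 0.07 (adjusted p = 2.0e-06), and it fell further in the double mutant, by 1.06 ± 0.07 against the lonp-1 mutant (adjusted p = 5.2e-08).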

How the data were processed

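Total RNA of whole L4 worms was sequenced in 12 stranded paired-end libraries, per the labels. The submitters used STAR, featureCounts and DESeq2 with the WBcel235 genome, per the submitters' processing notes, with versions not given in the sources used here, nor whether counting used strand. The authors deposited a normalized count (signal: reads divided by the size factor of the library, 0.8479 to 1.2153) and an FPKM value per gene and library, for genes with at least 10 reads in all. In the deposited signal, 100% of values were whole multiples of 1 step per library within 0.01, so whole reads were recovered. The deposited FPKM are the same reads scaled to the total, so a change between normalized counts and FPKM is a change of scaling. The fit on FPKM also used another filter and pseudocount, and it tested 143 members and 15990 genes.

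limma 3.58.1 (R 4.3.3, statmod 1.5.0; trend, robust) was fitted to log2(normalized count + 1) of the 15717 genes with a mean of at least 10, all 12 libraries in 1 fit, two-sided, Benjamini-Hochberg at 0.05. A fold change on this scale understates the change of low genes. Alternatives were pseudocounts of 0.5 and 5, other filters, TMM, FPKM (log2(FPKM + 0.1), mean of at least 0.5), edgeR 4.0.16, DESeq2 1.42.0, a replicate block, 2-genotype fits, and each library left out. edgeR on the recovered reads called 5279 genes higher and 5195 lower in lonp-1(cmh24) against wildtype.

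The named genes are, per comparison of 2 genotypes, the 8 largest rises and 8 largest falls among called members whose counts average 20 or more and whose groups do not overlap, the 6 largest interactions in each direction, fbxa-75 and fbxa-158, and the 10 members with the highest mean FPKM. The members and lists were chosen with earlier results of these data known. Lists are described by counts and medians. Positions and types are those of the deposited tables, and all 196 members match Ensembl release 115 of WBcel235. mrps-38 was not analysed here. Intervals cover counting error only, and a floor covers it only for the group without reads.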

Additional observations from a re-analysis of the deposited data

Results flagged for a closer look

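For 12 fbxa genes the effect of mrps-38(P210L) differed with the lonp-1 genotype by the interaction term of limma (adjusted p under 0.05), among the largest in each direction. The effect was higher with the lonp-1 mutation than without it, on the log2 scale, for fbxa-202 (5.48), fbxa-224 (5.11), fbxa-223 (5.04), fbxa-196 (4.77), fbxa-42 (4.74) and fbxa-201 (4.68). In these 6 genes mrps-38(P210L) was the lowest genotype and the double mutant the highest. It was lower for fbxa-163 (-4.08), fbxa-158 (-3.60), fbxa-66 (-3.07), fbxa-166 (-2.44), fbxa-24 (-2.44) and fbxa-170 (-1.70), in which lonp-1(cmh24) was the highest genotype. These orders of the genotypes follow in part from choosing the genes by their interaction, and they carry no test. Without replicate 3 of mrps-38(P210L) the interaction was 6.02 for fbxa-202 and 5.55 for fbxa-42. Without the wildtype library at 0 it was -2.51 for fbxa-158. For fbxa-163, which had 2 reads in wildtype, the value ran from -5.15 to -2.50 over the alternatives, and for fbxa-42 from 3.35 to 5.55.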

How the results depend on the processing

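The direction with more fbxa calls stayed the same under the alternatives run, except that between the double mutant and lonp-1(cmh24) rises and falls tied at a mean of at least 50. No call of a named gene was reversed. With a mean of at least 50, which left 84 members to test, 39 rose and 7 fell in lonp-1(cmh24) against wildtype, 10 rose in mrps-38(P210L) and 41 in the double mutant against wildtype. Of the 12921 genes left by this filter, 4047 rose and 4558 fell in lonp-1(cmh24) against wildtype. Against wildtype, 4364 of them rose in mrps-38(P210L) and 5462 in the double mutant. Under the same filter 21 rose and 21 fell between the double mutant and lonp-1(cmh24), 58 rose and 9 fell against mrps-38(P210L), and 19 had a lower interaction. For all genes these numbers were 4172 and 3222, 5738 and 5313, and 4168. On FPKM, with 143 members tested, 8 fell in lonp-1(cmh24) and 11 rose in mrps-38(P210L), both against wildtype. In the double mutant 15 rose against lonp-1(cmh24) and 7 fell against mrps-38(P210L). Of the 15990 genes tested on FPKM, 3218, 2617, 2992 and 4867 did so, in that order. Between the double mutant and lonp-1(cmh24), 18 rose with TMM factors, 64 fell with edgeR, and 16 to 31 rose with single libraries left out. Of all 15717 genes, 3366 rose with TMM factors and 5954 fell with edgeR. In the FPKM fit the median of all genes moved from -0.06 to 0.17 in lonp-1(cmh24) against wildtype and from -0.01 to -0.26 in mrps-38(P210L). For the double mutant it moved from 0.03 to -0.18 against lonp-1(cmh24) and from 0.05 to 0.32 against mrps-38(P210L). The causes were not tested.

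Replicate numbers did not pair the libraries, with correlations of deviations between same-numbered libraries of -0.159 to 0.122 over 18 pairs. With a replicate block, 76 members rose and 13 fell in lonp-1(cmh24) against wildtype, where 4769 and 4989 of all 15717 genes did. Of 4883 values of named genes under alternatives, 4731 kept direction and side of the threshold and 152 no longer passed. Members at a few reads limit the depth of what can be tested.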
